A study of Mus musculus with 6 samples.

Results

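The 9 keratin genes Krt5, Krt7, Krt8, Krt14, Krt16, Krt17, Krt18, Krt19 and Krt20 were examined in mouse RENCA cells, a line of renal adenocarcinoma cells. They were found by gene symbol in a table of 78298 genes, and the rule itself uses no measured value. The table held 56 entries with a keratin symbol. RNA from 2 groups of 3 samples had been sequenced as paired-end libraries. The oe-AQP1 cells had been transduced with a lentivirus that overexpresses AQP1, the water channel aquaporin 1, and the oe-NC cells with the matching control lentivirus. Both groups had a transduction step of 48 hours. Both had received 2 µg/mL puromycin for 14 days, and were collected 2 weeks after transduction, near confluence. The study's methods name a ubiquitin C promoter as the driver of mouse Aqp1 and an empty vector as the control. No untransduced RENCA cells were among the samples, so the transduction and the puromycin were shared by both groups. All 6 samples carry the same batch label. They are called biological replicates, but the sources do not say whether they came from separate transductions, so the p-values below measure only the spread between these samples, which may be technical.

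Keratins are the intermediate filament proteins of epithelial cells. Each filament is built from pairs of an acidic type I and a basic type II keratin, and the partners are made in matched sets. Krt8 (type II) and Krt18 (type I) form the filaments of simple epithelia such as the kidney tubule, where Krt7, Krt19 and Krt20 can join them. Krt5 and Krt14 are the pair of basal cells in stratified epithelia. Krt16 and Krt17 are type I keratins best known from injured or inflamed skin. In the mouse the type I genes lie together on chromosome 11, except Krt18, which lies beside its partner Krt8 in the type II cluster on chromosome 15.

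Because keratin genes arose by duplication, the extent to which their transcripts share letters bears on how far reads can be assigned to a single gene. In the GENCODE M39 transcripts, 36.0% of the 50-base windows of Krt16 also occurred in another gene, chiefly the pseudogene Gm11597 (382 windows) and Krt14 (188 windows), with 6 windows in common with Krt17. For Krt17 itself the share was 3.6%. The longest run common to Krt16 and Krt17, the 2 keratins that were higher in oe-AQP1 cells, is shown first. It has 55 bases, lies in exon 6 of both genes and codes for protein in both (GRCm39, chr11:100137451-100137505 in Krt16 and chr11:100148274-100148328 in Krt17, minus strand). It falls at the conserved end of the keratin rod. The capitals mark the 38 bases that also occur in a transcript of their neighbour Krt42.
Krt16 and Krt17: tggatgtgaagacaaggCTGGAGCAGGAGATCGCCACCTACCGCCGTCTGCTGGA
The longest run common to Krt14 and Krt16 is shown because Krt14 was at or near 0 while Krt16 was not. It has 134 bases in exon 1 and codes for protein in both genes (GRCm39, chr11:100097843-100097976 in Krt14 and chr11:100139302-100139435 in Krt16, minus strand).
Krt14 and Krt16: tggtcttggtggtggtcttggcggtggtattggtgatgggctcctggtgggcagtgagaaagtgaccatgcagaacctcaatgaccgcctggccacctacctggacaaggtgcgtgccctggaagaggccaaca
No stretch of 50 bases of Krt20 occurred in another gene. The share was 0.656% for Krt18, 1.13% for Krt7, 12.7% for Krt14, 14.8% for Krt5, 14.8% for Krt19 and 27.7% for Krt8, whose matches were mostly to its pseudogene Krt8-ps.

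Promoter sequences from RefSeq (GRCm38.p6, 250 bases before to 50 after the gene start) were matched for 6 of the 9 genes. None was available for Krt16, Krt17 and Krt19, so the 2 keratins that were higher in oe-AQP1 cells were not searched. The promoters of Krt8, Krt18, Krt7 and Krt20 are shown because the first 3 genes fell and Krt20 did not pass the test. Both strands were searched for a TATA box (TATAAA), AP-1 (TGANTCA), a GAS element (TTCNNNGAA), AP-2 (GCCNNNGGC) and a GC box (GGGCGG), and the matches are in capitals. The motifs were chosen after the values had been seen.
Krt8 promoter, chr15:102004293-102004592, minus strand: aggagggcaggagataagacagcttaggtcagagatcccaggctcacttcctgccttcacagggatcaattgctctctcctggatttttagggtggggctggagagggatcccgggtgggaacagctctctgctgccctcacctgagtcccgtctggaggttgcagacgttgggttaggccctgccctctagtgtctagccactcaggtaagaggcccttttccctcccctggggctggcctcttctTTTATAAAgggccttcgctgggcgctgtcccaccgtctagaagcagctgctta
Krt18 promoter, chr15:102027966-102028265, plus strand: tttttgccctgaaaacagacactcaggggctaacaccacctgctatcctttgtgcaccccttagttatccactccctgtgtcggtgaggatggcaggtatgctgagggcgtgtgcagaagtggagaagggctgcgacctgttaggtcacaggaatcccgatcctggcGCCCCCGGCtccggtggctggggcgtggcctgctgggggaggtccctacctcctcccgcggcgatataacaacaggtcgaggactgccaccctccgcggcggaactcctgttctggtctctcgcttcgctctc
Krt7 promoter, chr15:101412153-101412452, plus strand: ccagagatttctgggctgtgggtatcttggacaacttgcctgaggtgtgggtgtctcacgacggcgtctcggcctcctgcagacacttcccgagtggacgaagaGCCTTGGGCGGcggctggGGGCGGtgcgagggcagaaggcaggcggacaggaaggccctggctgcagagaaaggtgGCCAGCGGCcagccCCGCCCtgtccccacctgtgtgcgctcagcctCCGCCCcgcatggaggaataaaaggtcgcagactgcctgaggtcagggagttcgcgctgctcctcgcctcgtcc
Krt20 promoter, chr11:99438104-99438403, minus strand: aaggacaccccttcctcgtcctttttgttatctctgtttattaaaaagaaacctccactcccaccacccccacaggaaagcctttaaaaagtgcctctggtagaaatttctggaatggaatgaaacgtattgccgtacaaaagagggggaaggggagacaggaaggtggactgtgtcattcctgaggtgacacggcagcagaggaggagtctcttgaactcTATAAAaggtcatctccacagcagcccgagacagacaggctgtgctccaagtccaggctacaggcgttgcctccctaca
Krt8 had 2 overlapping TATA box matches on opposite strands and Krt20 had 1, against 13.6% of 32544 promoters with any. Relative to the gene start used, those of Krt8 began at -3 and -1, and that of Krt20 at -29. Krt7 had 2 AP-2 matches and 4 GC box matches, of which the first of each overlap, and Krt18 had 1 AP-2 match. AP-2 matches occurred in 16.7% and GC boxes in 35.9% of all promoters. No AP-1 or GAS match lay in any of the 6 windows, which do not cover Krt16 or Krt17, against 7.79% and 8.33% of all promoters. A match is a run of letters only, and binding was not measured.

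The libraries held 18385714.02 to 21920898.67 expected counts, and Aqp1 separated the groups, at 7713, 8545 and 7838 counts with the Aqp1 vector and 41, 25 and 45 with the control vector. Of the oe-NC samples, number 1 stood apart, with a chi-square per gene of 9.47 and 11.1 against the other two, where all other pairs within a group lay between 1.71 and 2.04. The fold change of each tested member is therefore also given without it. Cell identity was checked with marker lists. The kidney lineage factor gene Pax8 was well expressed (3360, 3630 and 3209 counts in oe-AQP1, 3541, 3054 and 3615 in oe-NC), while 8 of 19 tubule markers, including Umod and Slc34a1, had at most 3 counts in every sample. Of 10 macrophage markers 4, including Ptprc and Adgre1, which define leukocytes and macrophages, also had at most 3 counts in every sample. Others of that list were counted, Cd68 the most, with 666, 777 and 666 counts in oe-AQP1 and 583, 576 and 650 in oe-NC.

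In the oe-AQP1 cells 2 of the 9 keratins were higher, 4 were lower, 1 did not pass the test and 2 had too few counts to be tested. Krt17 rose 3.68-fold and Krt16 rose from almost nothing. Krt18 fell by 16.8%, Krt8 fell by 24.6%, Krt7 fell by 35.4% and Krt19 fell by 48.8% in the fit. A gene was called where its false discovery rate (FDR) in limma-voom was under 0.05 over the 15522 genes tested. Of all genes tested, 16.0% were called higher and 16.6% lower in this comparison. With a log2 fold change (log2FC) beyond 1 required as well, Krt16 and Krt17 were the only members called, where 4.39% of all genes tested were called higher and 0.844% lower. In counts scaled to a common library size (CPM), the groups did not overlap for 6 members, 2 of them higher and 4 lower, as for 23.5% and 23.8% of all genes tested. The low-count filter asks for about 10 counts in at least 3 samples. Krt16 met it only in the oe-AQP1 samples, so it had to differ in order to be tested, and its call adds nothing to a count of members. The median log2FC of the 7 tested members was -0.27, against 0.0 for all genes tested.

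**Figure D1:**
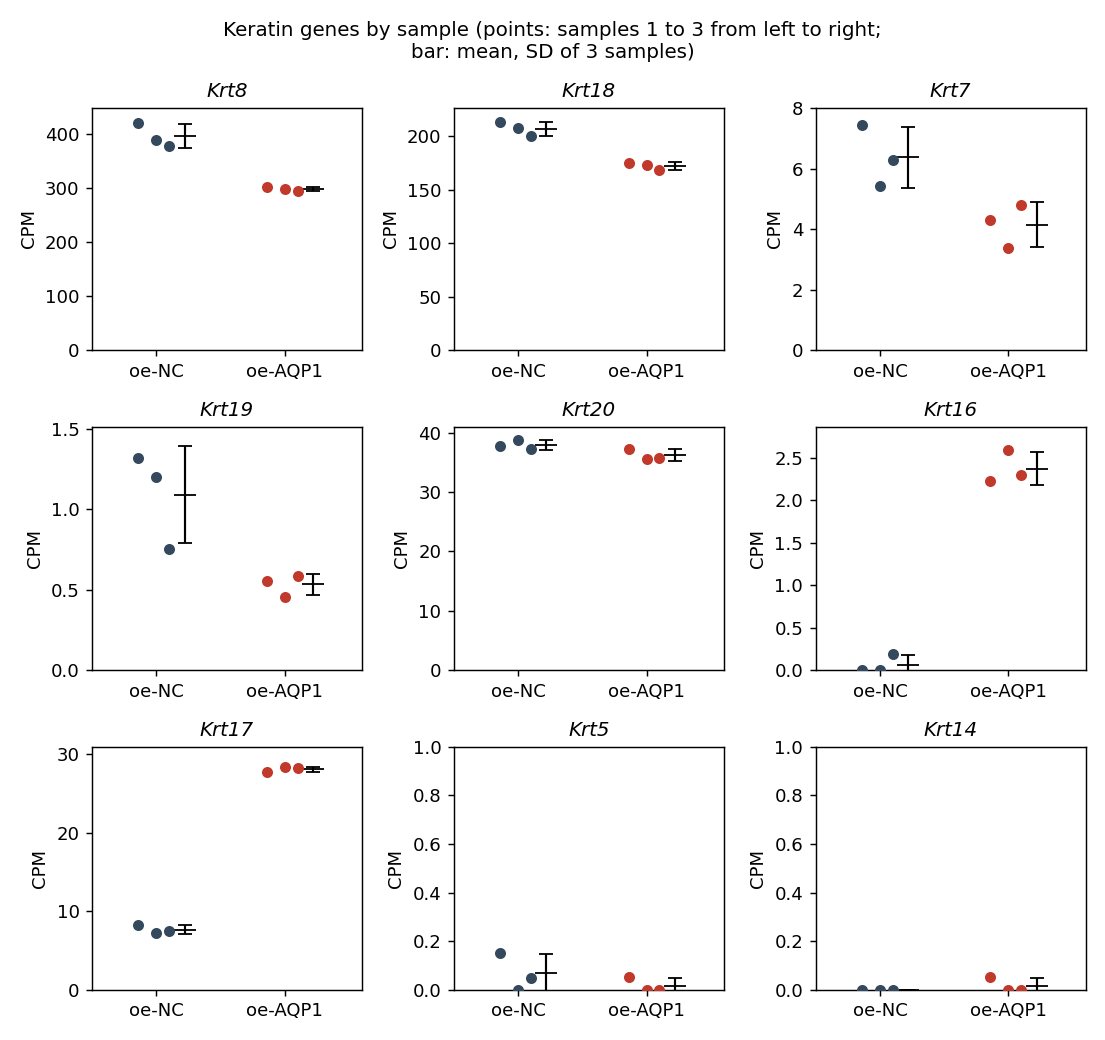
Counts scaled to library size (CPM, vertical axis) of the 9 keratin genes in each of the 3 oe-NC and 3 oe-AQP1 samples, with 1 panel per gene and bars for mean and SD. The groups are separate for Krt8, Krt18, Krt7, Krt19, Krt16 and Krt17 and overlap for Krt20, Krt5 and Krt14; error bars are cut at 0.

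The main filament pair of simple epithelia was lower in the oe-AQP1 cells. Krt8 (ENSMUSG00000049382, GRCm39 chr15:101905133-101912917, minus strand) was counted 5969, 6569 and 6082 times in the oe-AQP1 group and 8279, 7121 and 8068 times in the oe-NC group. In CPM these were 302, 299 and 296 against 422, 390 and 378, and the groups did not overlap. The mean was 299 ± 3.04 CPM against 397 ± 22.5 CPM (SD, n = 3), and the fit gave log2FC = -0.41 (SE 0.04, 95% CI -0.50 to -0.31, limma-voom FDR = 6.43e-05). The spread among the oe-NC samples was wider than that among the oe-AQP1 samples. Without oe-NC 1, which had the highest level, log2FC was -0.36 (limma-voom FDR = 3.80e-11).

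Its partner Krt18 (ENSMUSG00000023043, chr15:101936615-101940462, plus strand) had 3451, 3812 and 3463 counts in oe-AQP1 and 4187, 3799 and 4260 in oe-NC. The raw count of oe-AQP1 2, the deepest library, lay above that of oe-NC 2, the shallowest. After scaling the groups did not overlap, at 175, 173 and 168 CPM against 213, 208 and 200 CPM. The mean was 172 ± 3.24 CPM against 207 ± 6.78 CPM (SD, n = 3), with log2FC = -0.27 (SE 0.04, 95% CI -0.35 to -0.18, limma-voom FDR = 5.67e-04), and log2FC was -0.24 without oe-NC 1 (limma-voom FDR = 5.06e-07).

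The balance of the 2 partners was compared within samples. The ratio of Krt8 to Krt18 counts was 1.73, 1.72 and 1.76 in oe-AQP1 and 1.98, 1.87 and 1.89 in oe-NC. Every oe-AQP1 ratio lay below every oe-NC ratio, a log2 difference of -0.14 (exact two-sided permutation test, p = 0.1, the smallest p that 3 against 3 samples allow). Without oe-NC 1 the difference was -0.12. The ratio is free of library size, but 27.7% of the 50-base windows of Krt8 also occur in other genes and 0.656% of those of Krt18.

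Krt7 and Krt19, simple epithelial keratins of ducts and of the urothelium, were expressed far below the main pair and were also lower. Krt7 (ENSMUSG00000023039, chr15:101308924-101328194, plus strand) had 85, 74 and 99 counts in oe-AQP1 and 146, 99 and 134 in oe-NC, or 4.3, 3.37 and 4.81 CPM against 7.44, 5.42 and 6.29 CPM. The scaled values of the groups did not overlap, although oe-AQP1 3 and oe-NC 2 had equal counts. Krt7 averaged 4.16 ± 0.735 CPM against 6.38 ± 1.01 CPM (SD, n = 3), with log2FC = -0.63 (SE 0.17, 95% CI -1.0 to -0.26, limma-voom FDR = 0.0156). Without oe-NC 1 log2FC was -0.52 (limma-voom FDR = 0.0152). Leaving out oe-AQP1 2, its lowest sample, ended the call (log2FC = -0.48, limma-voom FDR = 0.0774).

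Krt19 (ENSMUSG00000020911, chr11:100031636-100039491, minus strand), the smallest keratin, without a tail domain, had 11, 10 and 12 counts in oe-AQP1 and 26, 22 and 16 in oe-NC. All 3 oe-NC samples were above all 3 oe-AQP1 samples, and oe-NC 3 lay nearest to them. Krt19 averaged 0.532 ± 0.0679 CPM against 1.09 ± 0.303 CPM (SD, n = 3), with log2FC = -0.97 (SE 0.32, 95% CI -1.67 to -0.26, limma-voom FDR = 0.0403). This call was weak. It was lost with DESeq2 (FDR = 0.0987), without the low-count filter (limma-voom FDR = 0.0794), and on leaving out oe-AQP1 1 (limma-voom FDR = 0.0988), oe-AQP1 2 (0.144), oe-AQP1 3 (0.0932), oe-NC 1 (0.104, log2FC = -0.80) or oe-NC 2 (0.105). The ratio of Krt7 to Krt19 counts was 7.79 ± 0.429 in oe-AQP1 and 6.16 ± 1.99 in oe-NC (SD, n = 3, exact two-sided permutation test, p = 0.4), and its ranges overlapped. The log2 difference was 0.39, and 0.34 without oe-NC 1.

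Krt20 (ENSMUSG00000035775, chr11:99319227-99328985, minus strand), a keratin of intestinal and umbrella cells, had 737, 782 and 736 counts in oe-AQP1 and 740, 710 and 793 in oe-NC. At 37.3, 35.6 and 35.8 CPM against 37.7, 38.8 and 37.2 CPM the groups overlapped, with oe-AQP1 1 just above oe-NC 3. The means were 36.2 ± 0.928 and 37.9 ± 0.843 CPM (SD, n = 3). Krt20 did not pass the test, with log2FC = -0.07 (SE 0.05, limma-voom FDR = 0.353) and a 95% CI of -0.18 to 0.05, and log2FC was -0.07 without oe-NC 1 (limma-voom FDR = 0.303).

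Uroplakin Upk3b, a urothelial and mesothelial surface protein gene, was the most abundant gene of the urothelial marker list. It had 136, 135 and 104 counts in oe-AQP1 and 271, 265 and 308 in oe-NC (log2FC = -1.25, called lower). This was the direction of Krt7 and Krt19, whereas Krt20 was not called. Upk3bl, the only other gene of the list tested, was not called (log2FC = -0.39, limma-voom FDR = 0.439). The summed level of the 7 urothelial markers was 6.08 to 8.09 CPM in the oe-AQP1 group against 15.2 to 16.3 CPM, and Upk1b, Upk2 and Upk3a were at most at 3 counts in every sample. The part of urothelial RNA in the keratin values was not tested. In bulk RNA, fewer cells of a kind and less RNA per cell cannot be told apart.

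Krt17 had the lowest FDR of the 7 members tested. Krt17 (ENSMUSG00000035557, chr11:100147040-100151974, minus strand) is induced in wounded skin and is present in ducts and skin appendages. It had 548, 622 and 580 counts in oe-AQP1 and 162, 131 and 159 in oe-NC, or 27.7, 28.3 and 28.2 CPM against 8.25, 7.17 and 7.46 CPM. The lowest oe-AQP1 sample was well above the highest oe-NC sample. The mean was 28.1 ± 0.31 CPM in oe-AQP1 and 7.63 ± 0.562 CPM in oe-NC (SD, n = 3), a 3.68-fold rise (95% CI 3.25 to 4.16) with log2FC = 1.88 (SE 0.08, limma-voom FDR = 4.49e-08). Without oe-NC 1 log2FC was 1.93 (limma-voom FDR = 4.03e-12), and over 16 alternatives it lay between 1.84 and 1.93.

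Krt16 (ENSMUSG00000053797, chr11:100136917-100139795, minus strand), the next gene along the chromosome and a keratin of hyperproliferating epidermis, had 44, 57 and 47 counts in oe-AQP1. It had 0, 0 and 4 counts in oe-NC, where only oe-NC 3 had any. The levels were 2.23, 2.59 and 2.29 CPM in oe-AQP1 (2.37 ± 0.197, SD, n = 3) and 0, 0 and 0.188 CPM in oe-NC. In summed counts this was 148 against 4, a depth-corrected ratio of 35.5 with a 95% counting interval of 13.6 to 132. Without oe-NC 3 it was at least 30.3-fold higher, taking 3 counts over the group as the floor. The fitted log2FC was 5.50 (SE 0.59, 95% CI 4.18 to 6.82, limma-voom FDR = 6.74e-05). It was 4.98 without oe-NC 1 (limma-voom FDR = 1.68e-05), and it depends on the prior count, since 2 oe-NC samples were at 0.

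Of the genes with which Krt16 shares sequence, Gm11597 and Krt14 had almost no reads, whereas Krt17 was well counted. Gm11597, which lies between Krt14 and Krt16, was at 0 except for an expected count of 1.17 in oe-AQP1 3, where Krt16 had 46.83. Krt16 amounted to 0.0803, 0.0916 and 0.081 of the Krt17 count in the oe-AQP1 samples. In oe-NC 1 and oe-NC 2 it amounted to 0, with 162 and 131 Krt17 counts present, and in oe-NC 3 to 0.0252. The ratios of the groups did not overlap, and with 2 samples at 0 they were not tested.

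The basal pair Krt5 and Krt14 was at or below the floor of 3 counts in every sample. Krt5 (ENSMUSG00000061527, chr15:101615505-101621346) had 1, 0 and 0 counts in oe-AQP1 and 3, 0 and 1 in oe-NC. Krt14 (ENSMUSG00000045545, chr11:100093988-100098490) had 1, 0 and 0 counts in oe-AQP1 and 0 in every oe-NC sample. A level up to 0.137 CPM in the largest library and 0.163 CPM in the smallest could go with 0 counts, from counting error alone, and no difference was detectable at this depth. Of the 12 keratinocyte markers present, 10, including Krt1, Krt10, Flg and Ivl, had at most 3 counts in every sample. The summed level of the list was 0.973 to 1.31 CPM in the oe-AQP1 group against 0.657 to 0.968 CPM. Most of this sum was Sfn, the only gene of the list tested. Its groups overlapped, at 1.16, 1.0 and 0.778 CPM in oe-AQP1 and 0.917, 0.821 and 0.61 CPM in oe-NC. Sfn was not called (log2FC = 0.32, limma-voom FDR = 0.415).

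**Figure D2:**
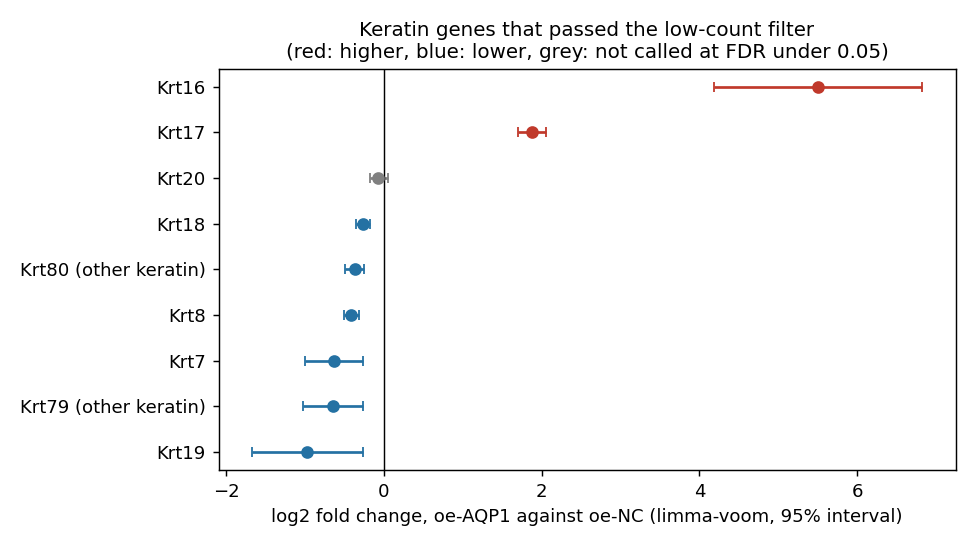
Log2 fold change between the groups (horizontal axis, positive where oe-AQP1 was higher; limma-voom, bars for the 95% interval) for the 9 keratin genes that passed the low-count filter, 7 members and the other keratins Krt79 and Krt80. Krt16 and Krt17 lie right of 0, the interval of Krt20 spans 0, and the rest lie left of it.

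Among the other 47 keratin entries, 26 were at 0 in every sample, among them Krt6a, Krt6b and Krt75, type II keratins that pair with Krt16 or Krt17 in skin and its appendages, and Krt10, Krt13 and Krt15. Only Krt80 and Krt79, both type II genes on chromosome 15, passed the filter, and both were lower in oe-AQP1. Krt80, a widely expressed keratin, had 1971, 2126 and 2043 counts in oe-AQP1 and 2699, 2290 and 2550 in oe-NC (log2FC = -0.37, SE 0.05, limma-voom FDR = 5.28e-04). Krt79, known from the ducts of hair follicles, had 45, 40 and 42 counts against 59, 68 and 63 (log2FC = -0.65, SE 0.17, limma-voom FDR = 0.0167). The groups did not overlap for either gene after scaling. The call of Krt79 was lost on leaving out oe-AQP1 2 (limma-voom FDR = 0.0776), oe-AQP1 3 (0.0549) or oe-NC 2 (0.0543).

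A common scale for the levels of different keratins was set by dividing CPM by the length of all exons of a gene in kilobases. On this scale of CPM per kb the order in oe-NC was Krt8 (203 ± 11.5), Krt18 (144 ± 4.71), Krt20 (19.6 ± 0.435), Krt17 (4.56 ± 0.336), Krt7 (0.905 ± 0.144) and Krt19 (0.589 ± 0.163), each SD with n = 3. Krt16, Krt5 and Krt14 came last, and their ranges overlapped. In oe-AQP1 the levels were 153 ± 1.55 for Krt8, 120.0 ± 2.26 for Krt18, 18.7 ± 0.479 for Krt20, 16.8 ± 0.185 for Krt17, 1.45 ± 0.121 for Krt16, 0.59 ± 0.104 for Krt7 and 0.287 ± 0.0366 for Krt19. On this scale Krt16 went from place 7 to place 5, above Krt7 and Krt19, and Krt17 came close to Krt20 without overlap of their ranges. The place of Krt16 above Krt7 depends on the lengths used, 1632 bases for Krt16 and 7049 for Krt7. In CPM Krt7 was above Krt16 in every oe-AQP1 sample, at 4.3, 3.37 and 4.81 against 2.23, 2.59 and 2.29. Among the type II members only Krt8 and Krt7 were above the floor.

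Over all keratins the summed level was 327 ± 3.94 CPM per kb in oe-AQP1 and 394 ± 18.0 in oe-NC (SD, n = 3), and the samples of the groups did not overlap. Krt8 made up 46.7% ± 0.103 of this sum in oe-AQP1 and 51.4% ± 0.63 in oe-NC. For Krt18 the shares were 36.7% ± 0.289 and 36.6% ± 0.588, within the spread. The share of Krt17 was 5.14% ± 0.11 against 1.16% ± 0.0526, and that of Krt16 was 0.444% ± 0.0375 against 0.0102% ± 0.0176. Without oe-NC 1 the oe-NC shares were 51.1% for Krt8, 36.9% for Krt18 and 1.14% for Krt17. Krt8 and Krt18 together made up 83.4% in oe-AQP1 and 88.1% in oe-NC, and Krt16 and Krt17 together 5.58% and 1.17%. Shares of a sum depend on each other: the Krt20 share was larger in oe-AQP1 (5.72% against 4.98%), while its own level did not pass the test.

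By chromosome, the summed level of the keratins on chromosome 11 was 37.6 ± 0.228 CPM per kb in oe-AQP1 and 25.1 ± 0.58 in oe-NC. That of the keratins on chromosome 15, which include Krt18, was 289 ± 3.74 and 369 ± 17.5 (SD, n = 3). The first sum was higher and the second lower in every oe-AQP1 sample than in any oe-NC sample. On chromosome 11 the direction was not shared by all genes, since Krt19 was lower and Krt20 was not called.

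**Figure D3:**
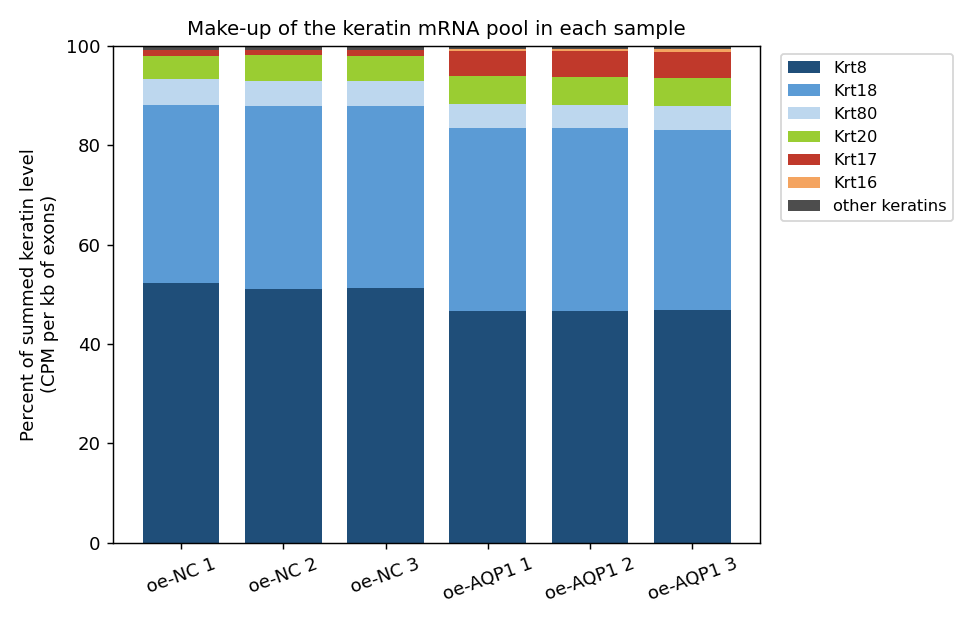
Percent of the summed keratin level (CPM per kb of exons, vertical axis) held by each keratin in each of the 6 samples, drawn as stacked bars. Krt8 and Krt18 fill 83.4% of the bars on average in oe-AQP1 and 88.1% in oe-NC, and the Krt17 segment is 5.14% against 1.16%.

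Along chromosome 11, Krt16, Krt17 and Krt42 follow each other. Krt42, a type I gene that was singled out after its values had been seen, had 7, 6 and 8 counts in oe-AQP1 and 1, 1 and 0 in oe-NC, too few for the filter. The summed counts were 21 and 2, a depth-corrected ratio of 10.1 with a 95% counting interval of 2.46 to 88.5, and with no filter the limma-voom FDR was 0.00543. It shared 0.234% of its 50-base windows with other genes, all of them with Krt17. On the near side Krt14, Krt9 and Krt15 were at 0 or 1 count, while Krt19, between Krt9 and Krt15, was lower as given above. On the far side Eif1, a translation initiation factor gene, had 15902, 16764 and 15432 counts in oe-AQP1 and 14872, 14814 and 17506 in oe-NC and was not called. Jup, the gene of the junction protein plakoglobin that starts 113 kb from Krt17, was lower.

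Within 500 kb of the 9 genes, 59 genes that are no keratins were tested, of which 9 were higher, 9 were lower and 41 were not called, with a median log2FC of 0.02. On leaving out oe-AQP1 1, oe-AQP1 2, oe-AQP1 3 or oe-NC 2 in turn, 5 were higher each time. Near the chromosome 11 members 7 were higher and 4 lower of 23, where 16.0% and 16.6% of all genes tested were called. The largest increases were those of Dhx58 (log2FC = 2.44, SE 0.05, limma-voom FDR = 1.71e-10), a regulator of cytosolic RNA sensing, and of Dhx58os (log2FC = 2.69, SE 0.50, limma-voom FDR = 0.00249), which overlaps it in the opposite direction. Dhx58os had 14, 26 and 20 counts in oe-AQP1 and 1, 2 and 6 in oe-NC, so it met the filter only where it was high and had to differ to be tested. Dhx58 and Dhx58os lie 439 and 431 kb from Krt17. Where they overlap (chr11:100585710-100588527), their reads cannot be told apart without strand. The largest decreases were those of Amhr2, the receptor of anti-Müllerian hormone (log2FC = -1.70, SE 0.35, limma-voom FDR = 0.00412), and of the long non-coding gene ENSMUSG00000131830 (log2FC = -0.69, SE 0.20, limma-voom FDR = 0.0222), 417 and 377 kb from Krt18. Amhr2 had 7, 6 and 8 counts in oe-AQP1 and 16, 26 and 27 in oe-NC, and it likewise met the filter only where it was high.

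**Figure D4:**
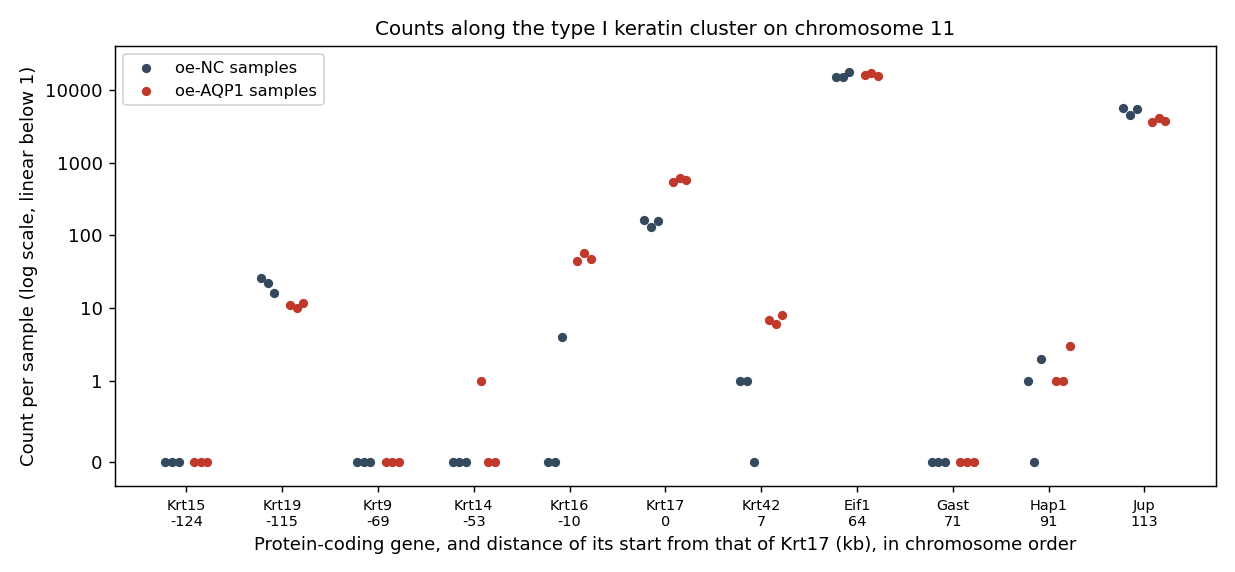
Counts per sample (vertical axis, logarithmic and linear below 1) of protein-coding genes around Krt17 in chromosome order, with the distance of each gene start from that of Krt17 in kb on the horizontal axis. Red oe-AQP1 points lie above the oe-NC points for Krt16, Krt17 and Krt42 and below them for Krt19 and Jup.

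Genes that anchor keratin filaments were mostly lower or not called. The counts of each list below stand against 16.0% of all genes tested that were called higher and 16.6% lower. Of 16 desmosome genes 4 passed the filter and 6 were at 0. Jup, which ties desmosomal cadherins to desmoplakin, had 3611, 4059 and 3749 counts in oe-AQP1 and 5568, 4522 and 5378 in oe-NC (log2FC = -0.51, SE 0.05, limma-voom FDR = 4.43e-05). Pkp2, a plakophilin, was lower as well (log2FC = -0.38, SE 0.05, limma-voom FDR = 2.36e-04), and the other two were not called. Of 13 tested genes of hemidesmosomes and cytolinkers 6 fell and 2 rose, the latter a share near the 16.0% of all genes, with a median log2FC of -0.34 against 0.0 for all genes. Itgb4, the integrin subunit that binds keratin linkers at hemidesmosomes, had 174, 183 and 164 counts against 354, 273 and 294 (log2FC = -0.89, SE 0.12, limma-voom FDR = 2.50e-04). The linkers Macf1 (log2FC = -0.53), Plec (log2FC = -0.45) and Dst (log2FC = -0.34), of which Dst had the most counts, were lower. Eppk1 (epiplakin, log2FC = 0.56, SE 0.11, limma-voom FDR = 0.00251) and Tchp (trichoplein, log2FC = 0.34, SE 0.07, limma-voom FDR = 0.00571), both keratin-binding proteins, were higher.

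Of the 8 other intermediate filament genes tested, 4 fell and 4 were not called. Vim, the mesenchymal filament vimentin, was the most abundant and had log2FC = -0.40 (limma-voom FDR = 1.39e-04). Des (desmin) had log2FC = -0.40 (limma-voom FDR = 0.00123) and the nuclear lamin gene Lmna had log2FC = -0.42 (limma-voom FDR = 0.00494). Of 11 epithelial surface and junction genes tested, 5 fell and 2 rose, where 16.6% and 16.0% of all genes did. Cdh1 (E-cadherin) had 38, 50 and 40 counts in oe-AQP1 and 77, 67 and 78 in oe-NC (log2FC = -0.86, SE 0.15, limma-voom FDR = 0.00173). The kidney cadherin Cdh16 (log2FC = -0.63) and Cdh3 (log2FC = -0.33) were also lower, whereas Marveld2 (tricellulin, log2FC = 0.82, limma-voom FDR = 0.0253) and the membrane protease gene St14 (log2FC = 0.27, limma-voom FDR = 0.032) were higher.

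Genes that accompany Krt16 and Krt17 in injured skin were rarely expressed. Of the 33 cornified envelope and injury genes present, 19 were at 0 and 3 were tested. Sprr1a, a cornified envelope precursor, had 21, 24 and 27 counts in oe-AQP1 and 11, 7 and 10 in oe-NC (log2FC = 1.25, SE 0.28, limma-voom FDR = 0.00645). Its oe-NC samples did not all meet the low-count filter, so it was tested through the group where it was high. Tgm1, the transglutaminase that crosslinks the envelope, was lower (log2FC = -0.45, SE 0.06, limma-voom FDR = 1.66e-04). Of 21 transcription factors tested that are known from epithelia or from keratin promoters, 4 rose, 2 fell and 15 were not called, with a median log2FC of -0.01, beside 16.0% higher and 16.6% lower of all genes. Tfap2a, which encodes AP-2 alpha (log2FC = 0.62, SE 0.08, limma-voom FDR = 1.59e-04), and the AP-1 subunit Junb (log2FC = 0.44, SE 0.09, limma-voom FDR = 0.00475) were higher. The splicing regulator Esrp2 (log2FC = -0.71, SE 0.10, limma-voom FDR = 3.13e-04), which the list also held, and Cebpa (log2FC = -0.40, SE 0.12, limma-voom FDR = 0.0293) were lower.

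**Figure D5:**
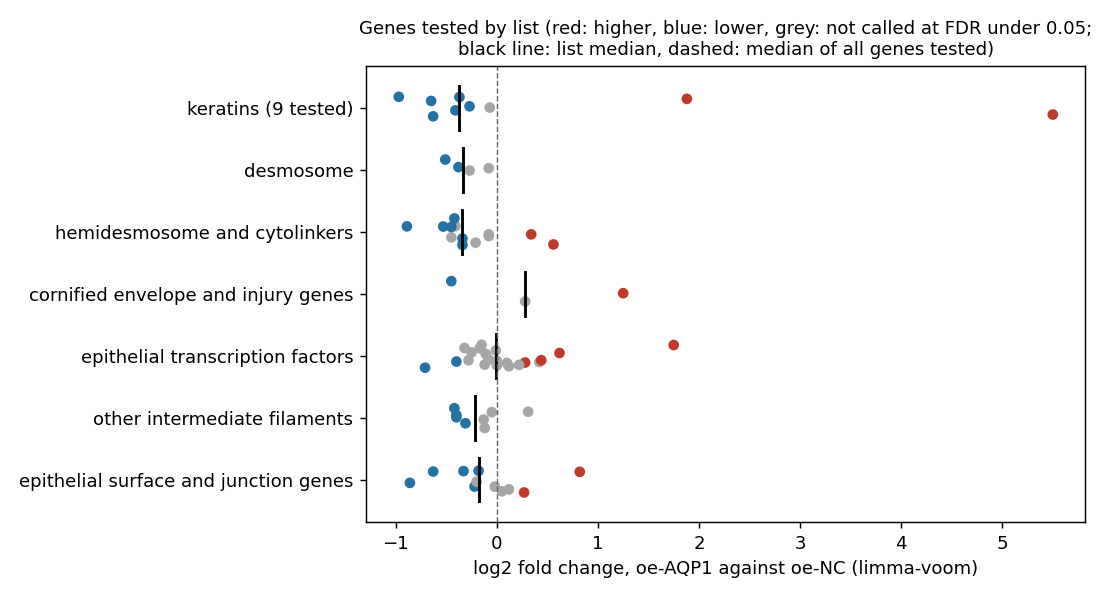
Log2 fold change between the groups (horizontal axis, positive where oe-AQP1 was higher) of each tested gene, with 1 row per gene list, a black line at each list's median and a dashed line at the median of all genes tested. The keratin row holds Krt16 and Krt17 far to the right and otherwise lies at or left of 0.

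Summed marker levels of other cell types also differed between the groups in part. The renal tubule list summed to 403 to 424 CPM in the oe-AQP1 group against 472 to 530 CPM. Of its 10 genes tested, Ggt1 was called higher (log2FC = 0.27), Cdh16 and Lrp2 (log2FC = -0.93) lower, and 7 were not called. Of all genes tested, 16.0% were called higher and 16.6% lower. The most counted gene of the list, Pax8, was not called (log2FC = -0.07). The macrophage list summed to 59.3 to 62.4 against 69.4 to 71.5 CPM, with 4 of 10 genes at most at 3 counts throughout. Its most abundant gene Cd68 was not called (log2FC = 0.15), and Csf1r (log2FC = -1.51) and Lyz2 (log2FC = -0.52) were called lower. The endothelial list summed to 29.7 to 31.5 against 38.8 to 40.6 CPM, with 5 of 8 genes at most at 3 counts. Most of that sum was Esam, which was called lower (log2FC = -0.40). The other 2 endothelial genes tested, Vwf (log2FC = 0.19) and Pecam1 (log2FC = 0.17), were not called. The fibroblast list summed to 56.7 to 58.9 against 51.7 to 65.8 CPM, with 7 of 10 genes at most at 3 counts. It held opposite calls, with Pdgfrb higher (log2FC = 0.34) and Col1a1 lower (log2FC = -0.73). Ggt1, Lrp2, Csf1r, Lyz2, Vwf, Pecam1 and Col1a1 were named after their values had been seen. The part of these cell types in the keratin values was not tested.

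For the 4 most abundant members, the genes with the most similar pattern over the 6 samples were found by the Euclidean distance between centred log2 CPM values among 13052 genes. Near to Krt8 were Ddb1 (distance 0.0384) and Gas6 (0.0423). Nearest to Krt18 were Acot7 (0.0255), Mdn1 (0.026) and Hdlbp (0.031). Krt20 was closest to Actr8 (0.0319), Hsph1 (0.0332) and Hnrnpf (0.0342). Krt17 was closest to Rasa4 (0.0999), Daxx (0.103) and Irgm1 (0.125), at larger distances than the nearest genes of the other members. The Krt17 pattern was that of a gene with log2FC near 1.8, since Rasa4 had log2FC = 1.85, Daxx 1.80 and Irgm1 1.81. The distance rests on 6 samples in 2 groups, and genes with a like difference between the groups lie close by this measure.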

How the data were processed

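Paired-end RNA-seq libraries of 3 oe-AQP1 and 3 oe-NC samples were analysed. The deposited table holds expected counts per gene, which the authors had made from the reads and of which some are not whole. The submitters' processing notes name fastp, HISAT2, featureCounts, Subread and GRCm38 (mm10), while the methods name GRCm39. Since 99.83% of the gene IDs occur in GENCODE M39, gene positions here are from GRCm39. How reads that match several genes were counted, and the strand setting, are not given in the sources used here.

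Expected counts were rounded. Genes were filtered with filterByExpr, scaled by TMM and tested with limma-voom (limma 3.58.1, edgeR 4.0.16, R 4.3.3), with Benjamini-Hochberg adjustment over 15522 genes and groups as the only term. Libraries of 18385714.02 to 21920898.67 expected counts make 3 counts, taken as the floor, equal to 0.137 to 0.163 CPM. The code was tested on simulated data. The 9 genes, the gene lists and the tests were chosen with earlier results of these data known. Named genes were all members, up to 3 largest increases and decreases per list and the most counted gene, up to 2 of each among neighbours within 500 kb, and the 3 nearest patterns of the 4 most counted members; some genes that this rule names are not reported here. As alternatives served DESeq2 1.42.0, edgeR's quasi-likelihood test, sample quality weights, 3 other scalings, 2 other filters, unrounded counts, a replicate block, exon or transcript length, and leaving out each sample. Counting intervals cover counting error only.

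The labels do not say what the sample numbers mark. No pairing by number was seen, with correlations of same-numbered deviations from the group means of 0.01, -0.0 and -0.07, and the samples were treated as unpaired. The exact permutation test cannot go below p = 0.1 with 3 against 3 samples.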

Additional observations from a re-analysis of the deposited data

How the results depend on the processing

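No fitted log2FC of a tested member, Krt79 or Krt80 and no log2 difference of a keratin ratio changed direction under any alternative run. The Krt18 share of the keratin sum did, within its spread. It was 36.7% in oe-AQP1 against 36.6% in oe-NC, and the oe-NC share was 36.9% without oe-NC 1. Krt8, Krt17, Krt18 and Krt80 kept their calls under all 16 alternatives and Krt16 under the 15 in which it was tested. Except with the filter of 1 count, Krt16 met the filter only in oe-AQP1 samples and had to differ to be tested. Fitted log2FC of Krt16 ranged from 4.98 to 6.50. Where all samples had to reach 10 counts, 1 member was called higher, because Krt16 was no longer tested. On leaving out 1 sample at a time, 2 to 4 members were lower, with 2 without oe-AQP1 2, and 1 to 2 of the other keratins were lower. Among neighbours, 5 to 13 were then higher. With no filter beyond 1 count, 1 other keratin, Krt42, was called higher. DESeq2 and that filter each ended the call of Krt19. With the replicate block, 2 members were higher and 4 lower as before, and 2346 and 2479 of all genes were called higher and lower. Taking the longest transcript as gene length moved the share of Krt8 to 45.2% in oe-AQP1 and 49.7% in oe-NC, and that of Krt18 to 35.5% and 35.4%. Depth limits Krt5, Krt14, Krt19 and the untested keratins. The causes of changed calls were not tested, other than for Krt16. Another scaling moved the median of all genes by at most 0.015 on the log2 scale.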

Other observations

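Of the other keratin entries, 19 had counts but too few to be tested, with at most 15 in a sample. Most of these are genes of hair, cornea or stratified epithelia. Krt23, a type I gene on chromosome 11, had 9, 7 and 4 counts in oe-AQP1 and 15, 11 and 10 in oe-NC. The groups did not overlap, with the oe-NC samples higher. Krt4, a type II keratin of the oesophagus, had 6, 13 and 7 counts in oe-AQP1 and 6, 7 and 13 in oe-NC, and the groups overlapped. Krt78, another type II gene, had 6, 6 and 2 counts against 11, 5 and 9, and the groups overlapped. Apart from these 3 and Krt42, no untested keratin had more than 4 counts in any sample. Krt23, Krt4 and Krt78 were singled out after their values had been seen.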
